A study of Mus musculus with 12 samples.

Results

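The enzymes described here carry out mitochondrial fatty acid oxidation: Cpt1a, Cpt2, Acadvl, Acadl, Acadm, Hadha, Hadhb, Eci1 and Etfdh. They were chosen by symbol from the deposited gene table, which gave 9 genes of 52636, and each symbol had 1 row. All 9 genes code for mitochondrial enzymes. Peroxisomal enzymes of the same pathway were followed as a separate list of 19 genes. RNA was sequenced from lung Cx3cr1+ macrophages of mice in 3 groups of 4 libraries each. The groups were saline IL4Ra WT, bleomycin IL4Ra WT and bleomycin IL4Ra KO, where IL4Ra is a receptor chain through which both IL-4 and IL-13 signal and bleomycin is a drug that injures the lung and is used to bring on fibrosis. There was no saline IL4Ra KO group among the samples, so the genotypes could be compared only after bleomycin. The sources used here do not give the age and sex of the mice, the bleomycin dose and time, or the way the receptor gene was deleted. The labels do not say that each library came from a separate animal, so p-values reflect the spread from library to library, and that spread may be technical.

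Fatty acids reach the mitochondrial matrix as acylcarnitines. Cpt1a, on the outer membrane, joins the acyl group to carnitine, and Cpt2, on the inner membrane, moves it back onto coenzyme A. Each round of oxidation then starts with an acyl-CoA dehydrogenase chosen by chain length, and the electrons it removes reach the respiratory chain through the electron transfer flavoprotein and Etfdh. The trifunctional protein, built from Hadha and Hadhb, completes the round for long chains, and Eci1 moves double bonds of unsaturated fatty acids into a position the cycle can use. In macrophages this pathway is known for its link to the state that IL-4 brings on, and alveolar macrophages are known for handling the lipids of surfactant.

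The genes lie on 7 chromosomes (GENCODE vM21, build GRCm38). Cpt1a is at chr19:3322334-3385733 on the plus strand, Cpt2 at chr4:107903981-107923610 on the minus strand and Etfdh at chr3:79603788-79629500 on the minus strand. Acadm is at chr3:153922357-153944632, Acadl at chr1:66830839-66863277 and Acadvl at chr11:70010183-70015411, all on the minus strand, and Eci1 is at chr17:24426641-24439348 on the plus strand. Hadha (chr5:30118304-30155162, minus strand) and Hadhb (chr5:30155248-30184593, plus strand) stand head to head with 85 bases between the annotated genes, so the 2 subunits of the trifunctional protein are neighbours read in opposite directions.

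Promoter windows of RefSeq (GRCm38.p6), from 250 bases before to 50 after a start site, were found for all 9 genes. Those of Cpt1a and Acadl are shown because only these 2 genes had 95% intervals wholly above 0 against saline WT in both bleomycin groups in the fit of 10 libraries described below, and that of Acadm because it held the most motif matches beside the smallest difference. Each is written from 5′ to 3′ along the gene's own strand, with motif matches in capitals. The Cpt1a window is chr19:3323051-3323350 on the plus strand, and the windows of Acadl (chr1:66863260-66863559) and Acadm (chr3:153944594-153944893) are on the minus strand.
Cpt1a: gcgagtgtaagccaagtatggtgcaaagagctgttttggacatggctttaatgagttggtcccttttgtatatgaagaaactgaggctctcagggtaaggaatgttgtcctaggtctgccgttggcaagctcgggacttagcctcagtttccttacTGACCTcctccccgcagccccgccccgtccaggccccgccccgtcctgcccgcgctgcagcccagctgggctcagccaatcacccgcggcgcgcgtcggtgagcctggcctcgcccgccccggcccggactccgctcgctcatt
Acadl: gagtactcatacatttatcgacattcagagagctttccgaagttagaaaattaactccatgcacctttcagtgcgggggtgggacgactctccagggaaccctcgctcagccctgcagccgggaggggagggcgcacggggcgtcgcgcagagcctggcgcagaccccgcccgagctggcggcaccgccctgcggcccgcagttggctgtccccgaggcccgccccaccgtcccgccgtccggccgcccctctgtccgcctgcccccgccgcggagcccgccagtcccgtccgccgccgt
Acadm: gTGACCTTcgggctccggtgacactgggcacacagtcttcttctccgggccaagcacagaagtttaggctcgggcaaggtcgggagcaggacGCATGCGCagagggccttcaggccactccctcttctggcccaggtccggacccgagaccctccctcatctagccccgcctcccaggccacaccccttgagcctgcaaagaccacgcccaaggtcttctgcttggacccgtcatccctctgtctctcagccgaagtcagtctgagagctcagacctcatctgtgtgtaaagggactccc
The motifs searched, on both strands, were the NRF1 core GCATGCGC, the oestrogen-related receptor (ERR) element AAGGTCA, the nuclear receptor half-site AGGTCA, the DR1 element (the half-site repeated after 1 free base) and the STAT6 element (TTC and GAA with 4 free bases between them). The half-site is contained in the ERR element, and the motifs were chosen with these sequences in view. The NRF1 core was in the windows of Acadm and Etfdh and in 2.71% of 32851 promoter windows. The ERR element was in that of Acadm and in 4.72% of all windows, and the half-site was in those of Cpt1a, Acadm and Acadvl and in 16.3% of all windows. The DR1 and STAT6 elements, found in 0.0396% and 6.95% of all windows, had no match in these 9, and a match is only a description of the letters.

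The libraries held 3534193 to 18051113 counts, except saline WT 2, which held 60598 counts in 4830 genes. That library had 11 counts over all 9 enzymes and none for Cpt2, Acadvl, Acadm, Eci1 and Etfdh. Since 1 count there stood for 10.8 CPM (a count divided by the TMM-scaled size of its library), its values of 0 allow up to 32.4 CPM at the limit of 3 counts, and such limits cover counting error only. Bleomycin WT 4 also stood apart, with a TMM scaling factor of 0.579 against 0.898 to 1.54 in the other libraries. The enzymes' fold changes are therefore given also from a fit of the 10 libraries without these 2. Il4ra stood at 332 ± 104 CPM in the libraries labelled bleomycin KO and at 355 ± 203 CPM in bleomycin WT (SD, n = 4 each), a difference smaller than the spread. The sources used here do not say whether the deleted exons are among those counted, so this level does not check the label.

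Macrophage markers were found in every library, beside markers of other cells. Adgre1, which encodes F4/80, was at 162 to 921 CPM over the 12 libraries. Cx3cr1, the gene the cells are named for, was at 98.1 to 940 CPM in saline WT, 7.46 to 113 CPM in bleomycin WT and 86.2 to 121 CPM in bleomycin KO, lowest in bleomycin WT 4. The summed level of 8 macrophage markers, led by Lyz2 and C1qa, was 12431 to 32354 CPM in saline WT, 22224 to 44972 CPM in bleomycin WT and 41659 to 62358 CPM in bleomycin KO. Lyz2 alone made up most of this sum, with means of 19982, 31009 and 42109 CPM in the same order. Of the 8 genes 6 had a log2 fold change above 0 and 2 below in each bleomycin group against saline WT. Over all genes 52.9% were above 0 for bleomycin WT and 51.7% for bleomycin KO. The 10 neutrophil markers, led by S100a9 and S100a8, summed lower in both bleomycin groups and did not overlap with saline. Their sums were 2614 to 29311 CPM in saline WT, 324 to 1599.7 CPM in bleomycin WT and 1163 to 1909 CPM in bleomycin KO. Ly6g, which defines neutrophils, was at 0 in saline WT 1 and 2, bleomycin WT 4 and bleomycin KO 2. Lung epithelial markers (10 genes, Sftpc among them) summed to 1576 to 2436, 340 to 1004 and 265 to 751 CPM, also without overlap. Not all 10 were lower: 3 had a log2 fold change above 0 in bleomycin WT and 2 in bleomycin KO, against saline WT. Alveolar macrophage markers (10 genes, with Chil3) summed to 1427 to 4492, 554 to 2286 and 1026 to 1709 CPM. Endothelial markers did not overlap between saline WT and bleomycin KO, at 216 to 421, 82.2 to 708 and 73.8 to 145 CPM in the same order. The sums of the remaining lists overlapped between every pair of groups, but a sum can hide members that went in opposite directions. Among fibroblast markers Col3a1 was at 0 to 39.4 CPM in saline WT and 87.9 to 148 CPM in bleomycin WT. Inmt was at 32.4 to 307 and 9.14 to 27.0 CPM in the same groups. Of the 7 monocyte markers 6 had a log2 fold change below 0 in bleomycin WT against saline WT, and 1 above. Monocyte markers summed to 897 to 4361, 1219 to 2469 and 1562 to 2395 CPM, and dendritic markers to 10.8 to 833, 234 to 453 and 332 to 439.6 CPM. Fibroblast markers summed to 108 to 400.2, 216 to 322 and 128 to 488 CPM. The sums were 97.3 to 347, 81.7 to 664 and 113 to 266 CPM for B-cell markers, and 10.8 to 202, 157 to 333 and 149 to 313 CPM for T/NK-cell markers. Fewer cells of a type and less RNA per cell cannot be told apart in bulk samples, and the part of these markers in the results below was not tested.

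Levels of the enzymes, per kilobase of exon, are given first for bleomycin KO. Over all 12 libraries this group had the smallest spread in CPM for all 9 genes. Without saline WT 2 and bleomycin WT 4 that held only for Acadm, Acadvl and Hadha. For Cpt1a the SD was then 17.5 CPM in saline WT against 43.7 CPM in bleomycin KO. In bleomycin KO Acadl, the long-chain dehydrogenase, came first at 61.6 ± 7.86 CPM per kilobase (SD, n = 4), followed by Cpt1a at 49.3 ± 10.2 and Acadvl at 45.7 ± 3.11. Eci1 (31.0 ± 8.24), Etfdh (27.4 ± 4.01), Acadm (24.9 ± 2.14) and Hadha (22.8 ± 3.76) made up the middle, Cpt2 was at 10.7 ± 3.72 and Hadhb at 4.57 ± 0.669 CPM per kilobase. In this order each gene overlapped with the next in its libraries, except that Hadha and Cpt2, and Cpt2 and Hadhb, did not overlap. In saline WT the first places went to Acadvl (30.0 ± 27.2) and Acadl (29.4 ± 9.46 CPM per kilobase), which did not differ beyond their spread. Eci1 came first in bleomycin WT at 97.6 ± 134 CPM per kilobase, a place that 1 library gave it. Cpt2 and Hadhb were the lowest of the 9 in all 3 groups.

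The low level of Hadhb has a limit in the gene's sequence. Of its 2170 windows of 50 bases, 57.5% also occur in another gene, nearly all in Gm13910, a processed pseudogene that held 1035 counts of its own, and no source used here says how such reads were counted. Per kilobase, Hadha stood 1.32 to 15.02 times above Hadhb over the 11 libraries other than saline WT 2, although the encoded subunits form 1 complex. The highest ratio was that of saline WT 1, which held only 10 Hadhb counts, and the lowest that of bleomycin WT 4. Acadvl is uncertain for another reason: 23.5% of its windows also occur in transcripts of Dvl2, which overlaps it on the opposite strand over 1151 exonic bases, and the library kit does not mark strand. The shares were 3.73% for Acadm, 2.01% for Eci1 and 0.655% for Hadha, and no window of Cpt1a, Cpt2, Acadl or Etfdh was shared. Etfdh overlaps the exons of 4930579G24Rik on the opposite strand by 278 bases.

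Bleomycin WT was compared with saline WT to ask how the pathway's RNA differed after lung injury. Of the 9 enzymes 8 had a log2 fold change above 0, and the median of the 9 was 0.77, but none passed the test. The median over all 16679 genes tested was 0.08, and 52.9% of them were above 0. Over 10 libraries all 9 enzymes were above 0, and their median was 0.38 against -0.14 for all genes. By edgeR's quasi-likelihood test 0 of 9 enzymes had an adjusted p (Benjamini-Hochberg, over all genes tested) under 0.05, against 4 genes or 0.024% of all. DESeq2 and limma-voom also called none. Cpt1a and Eci1 had an unadjusted p under 0.05, where 8.47% of all genes had one and were higher. The same 2 genes had no overlap between the groups, where 4.93% of all genes were higher with no overlap.

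Cpt1a, the enzyme that sets the rate at which long-chain fatty acids enter mitochondria, was higher in every bleomycin library than in every saline library. It was at 131, 10.8, 96.3 and 108 CPM in saline WT 1 to 4. In bleomycin WT 1 to 4 it was at 158, 364, 140 and 171 CPM, and in bleomycin KO 1 to 4 at 267, 175, 179 and 227 CPM. Bleomycin WT 2 was the high library and the low saline library was the shallow one. The group means were 208 ± 105 and 86.4 ± 52.3 CPM (SD, n = 4 each) with and without bleomycin, and the log2 fold change was 1.19 (SE 0.549, 95% interval 0.03 to 2.36) with an adjusted p of 0.334 by edgeR. Over 10 libraries the log2 fold change was 0.95 (SE 0.352) with an adjusted p of 0.274 by edgeR, and the groups again did not overlap. In that fit 0.431% of genes were called, and 11.2% were higher with no overlap.

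Cpt2, the carnitine enzyme of the inner membrane, ranged from 0 to 27.7 CPM in saline WT and from 0.711 to 33.1 CPM in bleomycin WT. Both low ends came from the libraries that stand apart, saline WT 2 and bleomycin WT 4. It gave a log2 fold change of 0.48 (SE 0.870), with an adjusted p of 0.844 by edgeR, and 0.64 over 10 libraries.

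Acadl, which acts on long-chain acyl-CoA, was higher in 3 of 4 bleomycin WT libraries than in every saline library. In saline WT 1 to 4 it was at 32.1, 64.9, 54.4 and 74.3 CPM, and in bleomycin WT 1 to 4 at 94.2, 108, 112 and 70.7 CPM. Bleomycin KO 1 to 4 held 98.1, 115, 129 and 130 CPM. Only bleomycin WT 4 lay within the saline range, and every KO library lay above it. The log2 fold change of bleomycin WT against saline WT was 0.79 (SE 0.458, 95% interval -0.18 to 1.76), with an adjusted p of 0.430 by edgeR. Over 10 libraries the means were 105 ± 9.34 and 53.6 ± 21.1 CPM (SD, n = 3 each), the groups did not overlap, and the log2 fold change was 0.95 (SE 0.288) with an adjusted p of 0.190 by edgeR.

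Acadm, the medium-chain dehydrogenase, showed the smallest difference of the 9. Saline WT 1 to 4 held 56.2, 0, 41.2 and 36.6 CPM, and bleomycin WT 1 to 4 held 52.7, 40.3, 49.6 and 0.533 CPM. In bleomycin KO the 4 libraries lay between 45.7 and 56.2 CPM. The log2 fold change of bleomycin WT against saline WT was -0.04 (SE 0.881), with 1 library at or near 0 in each group. Over 10 libraries it was 0.06, with a 95% interval of -0.54 to 0.67. Acadvl, the very-long-chain dehydrogenase, ranged from 0 to 118 CPM in saline WT and from 89.6 to 181 CPM in bleomycin WT. That gave a log2 fold change of 0.80 (SE 0.656) over 12 libraries and 0.22 over 10.

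Hadha, the subunit with the hydratase and dehydrogenase activities, was at 32.4 to 97.7 CPM in saline WT and 66.5 to 123 CPM in bleomycin WT, with a log2 fold change of 0.45 (SE 0.470). Hadhb, which carries the thiolase activity, was at 2.43 to 11.6 and 8.12 to 26.1 CPM, with a log2 fold change of 0.65 (SE 0.733). Over 10 libraries the values were 0.38 for Hadha and 0.11 for Hadhb. Both genes overlapped between the groups.

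Eci1, the enoyl-CoA isomerase, had the highest fold change of the 9, and 1 library made most of it. Saline WT 1 to 4 held 25.5, 0, 27.0 and 16.2 CPM, and bleomycin WT 1 to 4 held 34.8, 28.4, 36.4 and 326 CPM. Bleomycin WT 4 stood far above the rest, while the other 3 libraries of its group lay just above the saline range. For Eci1 the log2 fold change was 2.42 (SE 0.840, 95% interval 0.64 to 4.21), with an adjusted p of 0.241 by edgeR. Without bleomycin WT 4 it was 0.79, and over 10 libraries it was 0.51 (SE 0.346) with an adjusted p of 0.526 by edgeR, the groups still not overlapping. Etfdh, the last electron carrier before ubiquinone, ranged from 0 to 64.7 CPM in saline WT and from 57.5 to 132 CPM in bleomycin WT, again highest in bleomycin WT 4. Its log2 fold change was 0.77 (SE 0.612), and 0.10 over 10 libraries.

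**Figure D1:**
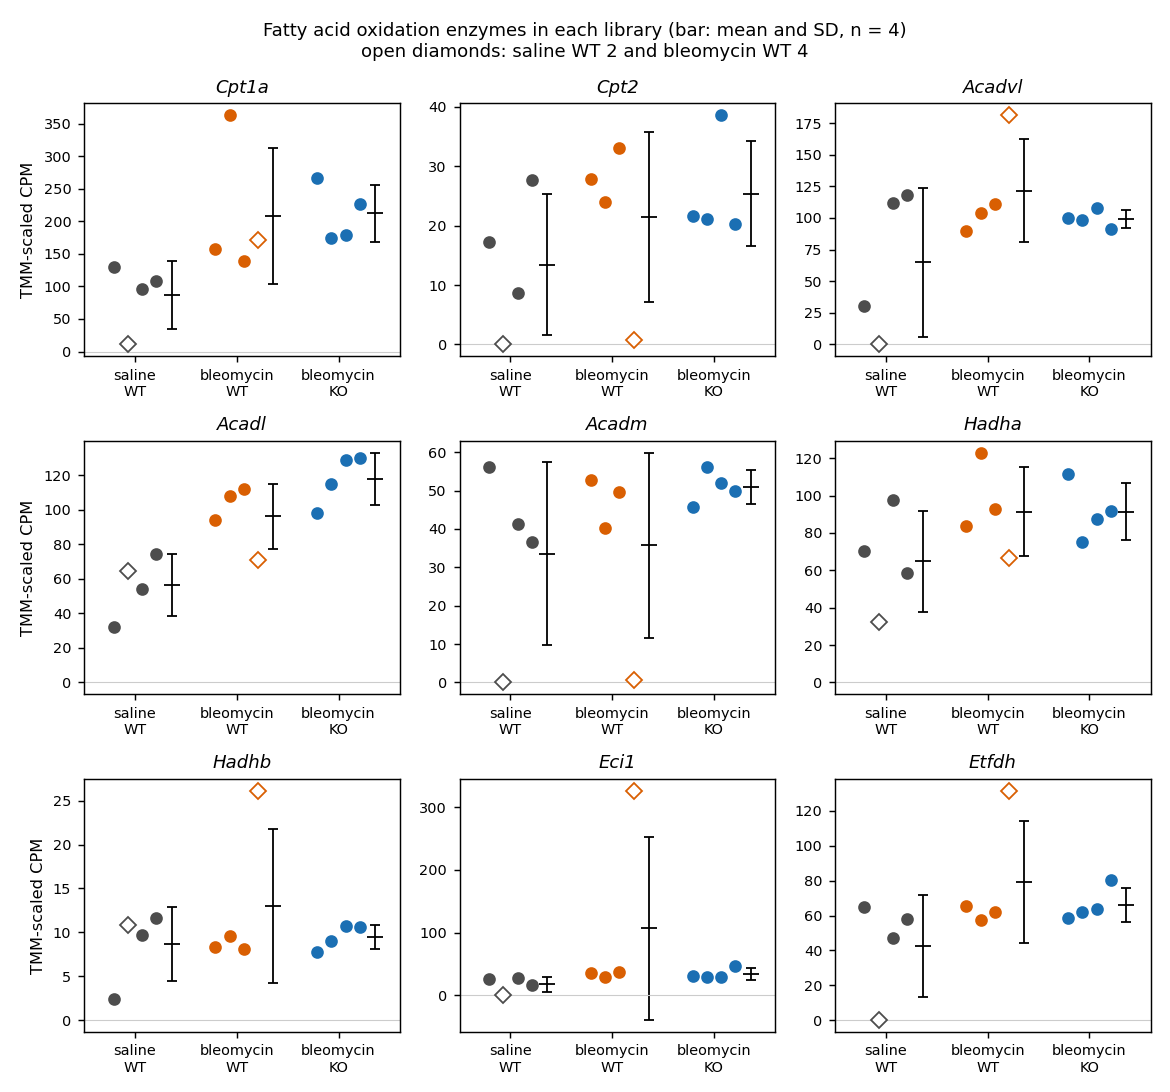
TMM-scaled CPM (vertical axis, linear, with its own scale in each panel) of the 9 fatty acid oxidation enzymes in each of the 12 libraries (points), with the mean and SD of each group of 4 (bars). Open diamonds mark saline WT 2 and bleomycin WT 4. Cpt1a in bleomycin WT (140 to 364 CPM) lies above saline WT (10.8 to 131 CPM), and the Eci1 mean of bleomycin WT is drawn up by 1 library at 326 CPM.

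The genotypes were compared after bleomycin, bleomycin KO against bleomycin WT, to ask whether the pathway's RNA depended on the receptor. No enzyme passed the test: 4 were above and 5 below 0, with a median log2 fold change of -0.00 against -0.01 over all genes, of which 49.3% were above 0. By edgeR, DESeq2 and limma-voom 0 of 9 enzymes were called, edgeR called 0% of all genes, and no enzyme had an unadjusted p under 0.05, which 3.88% of all genes had. All 9 adjusted p-values were 0.9998 by edgeR. Every enzyme overlapped between the groups.

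Cpt1a stood at 212 ± 43.7 CPM in bleomycin KO beside 208 ± 105 CPM in bleomycin WT (SD, n = 4 each). Their log2 fold change was 0.03, with a 95% interval of -1.11 to 1.17. Acadl was at 118 ± 15.1 and 96.2 ± 18.6 CPM, with a log2 fold change of 0.30 and an interval of -0.65 to 1.24. For Hadha the values were 91.4 ± 15.1 and 91.5 ± 23.6 CPM, with an interval of -0.98 to 0.98. Eci1 had the lowest value, -1.65 (95% interval -3.35 to 0.05), which became 0.04 over 10 libraries, without bleomycin WT 4. Over 10 libraries the fold changes of the 9 enzymes ran from -0.15 for Cpt2 to 0.18 for Acadl, and the narrowest interval, that of Etfdh, was -0.40 to 0.61.

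Bleomycin KO and saline WT differ in both treatment and genotype, and the saline libraries are the same ones as in the first comparison. All 9 enzymes had a level above saline WT, by a median of 0.51 against 0.04 for all genes, and 51.7% of all genes were above 0. Over 10 libraries the medians were 0.26 and -0.15. By edgeR, DESeq2 and limma-voom 0 of 9 passed at an adjusted p under 0.05, and edgeR called 3 genes or 0.018% of all. Cpt1a and Acadl had an unadjusted p under 0.05, where 2.96% of all genes had one and were higher. Cpt1a, Acadl and Eci1 did not overlap between the groups, where 8.17% of all genes were higher with no overlap.

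Cpt1a had a log2 fold change of 1.22 (SE 0.549) with an adjusted p of 0.527 by edgeR, beside 1.19 for bleomycin WT against the same saline libraries. Acadl had one of 1.08 (SE 0.460, 95% interval 0.11 to 2.06) with an adjusted p of 0.507 by edgeR, beside 0.79. Over 10 libraries Acadl was at 118 ± 15.1 CPM (SD, n = 4) against 53.6 ± 21.1 CPM (SD, n = 3), a log2 fold change of 1.13 (SE 0.275), and its adjusted p of 0.0956 by edgeR was the smallest of any enzyme in any comparison of these fits of 12 and 10 libraries. In that fit 0.643% of all genes were called, and 8.38% were higher with no overlap, as Cpt1a, Acadl and Eci1 were. The other 7 enzymes had fold changes from 0.20 for Hadhb to 0.77 for Eci1 over 12 libraries, and from 0.17 for Acadm to 0.55 for Eci1 over 10.

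**Figure D2:**
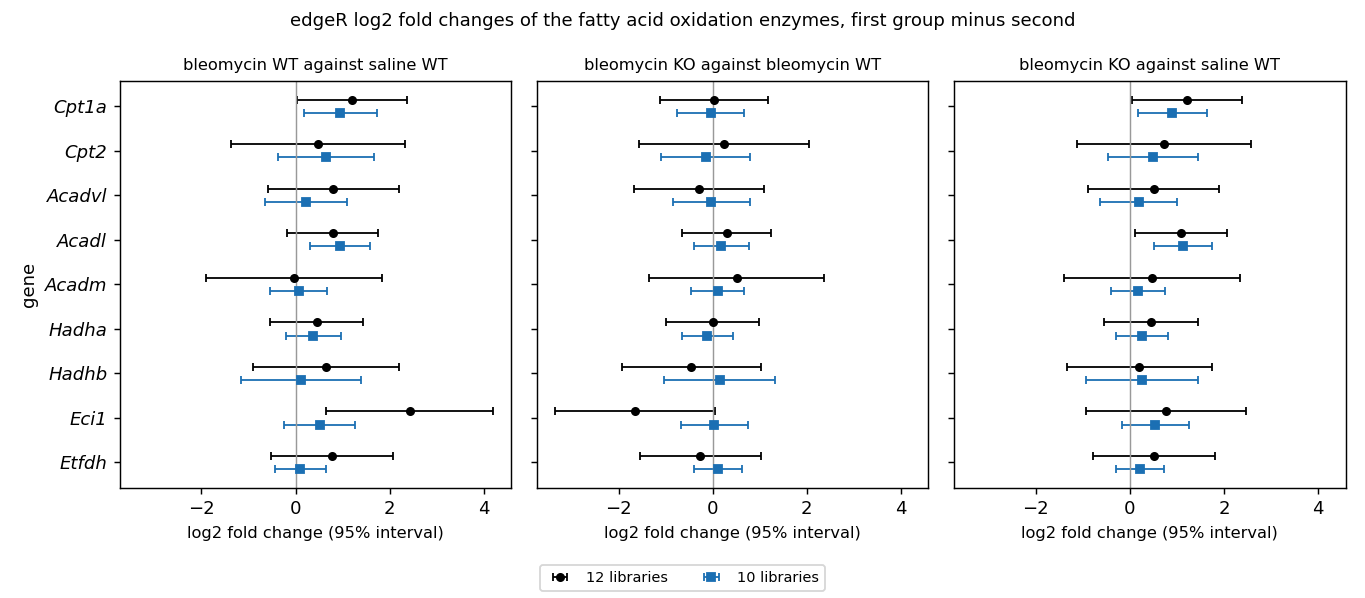
Log2 fold changes of the 9 enzymes by edgeR (horizontal axis; points) with 95% intervals (lines) in the 3 comparisons (panels), from all 12 libraries and from the 10 libraries without saline WT 2 and bleomycin WT 4. Intervals are narrower with 10 libraries. Against saline WT, Cpt1a is above 0 in both fits (1.19 and 0.95 for bleomycin WT), and Eci1 moves from 2.42 to 0.51.

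Across libraries the 9 enzymes did not follow a single pattern. Spearman's rho between pairs of enzymes over 11 libraries (without saline WT 2) ranged from -0.81 for Acadm and Acadvl to 0.67 for Acadvl and Hadhb and for Eci1 and Etfdh. Cpt1a and Acadl, whose promoter windows are printed above, had a rho of 0.65. Hadha and Hadhb, the subunits of 1 complex, had a rho of -0.35. These are descriptions over libraries that share groups and scaling. Eci1, Etfdh, Hadhb and Acadvl were each highest in 1 library, bleomycin WT 4. Acadm was lowest in that library, at 0.533 CPM, and no rho was computed without it.

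Among 9330 other genes with a mean of at least 10 CPM, those most like the mean profile of the 9 enzymes over the same 11 libraries were Matk (rho 0.94) and Vwa8 (0.93), followed by Gm5884, Plbd2, Slc29a3 and Tctn1 at 0.92. The last 4 tied, so 6 genes are named in place of 5. The median rho of the 9330 genes was 0.13, and 70 reached at least 0.8. Matk, a tyrosine kinase of blood cells, was at 19.2 ± 17.3 CPM in saline WT, 69.1 ± 17.0 in bleomycin WT and 75.3 ± 17.5 in bleomycin KO (SD, n = 4 each). Tctn1 was at 133 ± 88.6, 317 ± 58.5 and 327 ± 33.5 CPM in the same order.

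The rest of the pathway was read from 6 further lists of 79 genes, 77 of them tested. By edgeR none of the 77 passed at an adjusted p under 0.05 in any comparison. The lists differed in where their members lay. In bleomycin WT against saline WT the 17 other mitochondrial oxidation genes had 13 members above 0 and a median log2 fold change of 0.47, and the 17 genes of the citric acid cycle, which burns the acetyl-CoA made, had 14 above 0 and a median of 0.83. The 19 peroxisomal genes had 9 above 0 and a median of -0.22. The 11 tested regulators had 4 above 0 and a median of -0.30, the 9 targets of the lipid-sensing PPAR receptors had 7 above 0 and a median of 0.28, and the 4 tested acyl-CoA synthetases had 2 above 0 and a median of 0.24. Against the same saline libraries, bleomycin KO gave medians of 0.69, 0.65, 0.07, -0.62, -0.05 and 0.01 for these lists in the same order. Between the genotypes the medians ran from -0.34 for PPAR targets to 0.32 for the peroxisomal list. Without saline WT 2 and bleomycin WT 4 the order of the lists differed. For bleomycin WT against saline WT the medians were then 0.42 for the other mitochondrial genes, 0.56 for the citric acid cycle, -0.00 for the peroxisomal list, -0.10 for regulators, 0.09 for PPAR targets and -0.15 for all 5 synthetases, against -0.14 for all genes. For bleomycin KO against saline WT they were 0.54, 0.51, -0.14, -0.51, -0.04 and -0.41 in the same order of lists, against -0.15 for all genes. For bleomycin WT against saline WT the peroxisomal median thus lay below that of all genes over 12 libraries and above it over 10. Between the genotypes the 10 libraries gave medians from -0.20 for regulators to 0.11 for the other mitochondrial genes, with -0.00 for PPAR targets and -0.01 for the peroxisomal list.

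**Figure D3:**
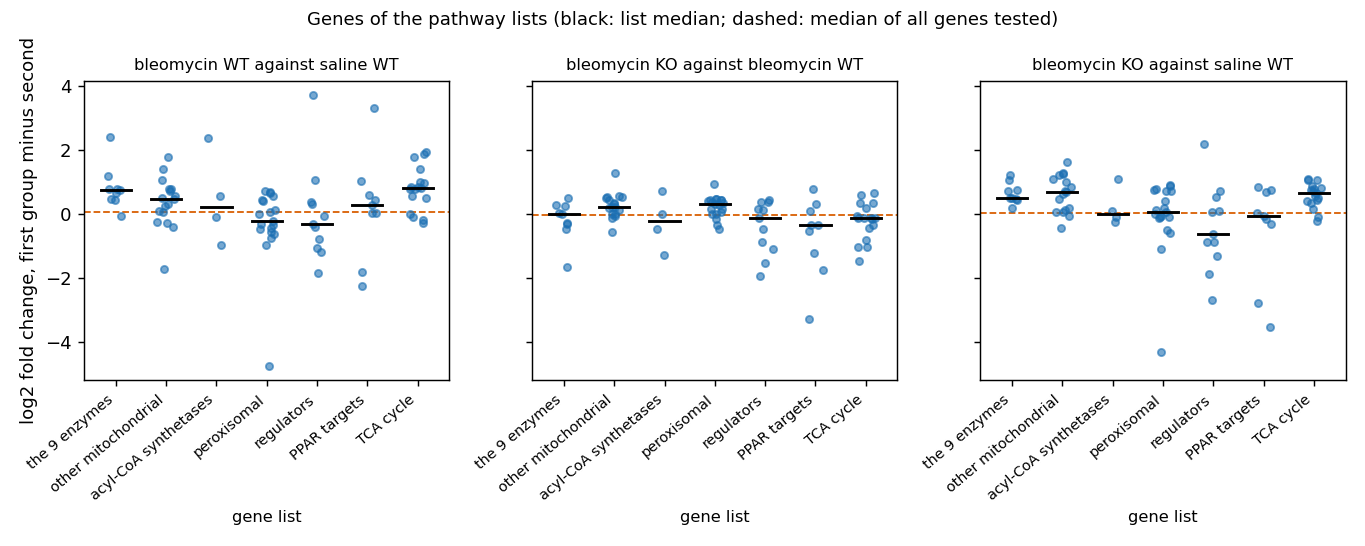
Log2 fold changes (vertical axis) of each tested gene (points) of the 9 enzymes and the 6 further lists in the 3 comparisons, with the list median (line) and the median of all genes tested. In bleomycin WT against saline WT the medians of the enzymes (0.77) and of the citric acid cycle (0.83) lie above that of all genes (0.08), while the peroxisomal median (-0.22) lies below it, all from 12 libraries; over 10 libraries the peroxisomal median (-0.00) lies above that of all genes (-0.14).

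Cs, citrate synthase, the entry enzyme of the citric acid cycle, was at 32.3, 43.2, 107 and 103 CPM in saline WT 1 to 4, while bleomycin WT 1 to 4 held 155, 237, 168 and 226 CPM. In bleomycin KO it was at 129 to 185 CPM, so both bleomycin groups lay above all saline libraries. Its log2 fold change was 1.42 (SE 0.483) for bleomycin WT and 1.07 for bleomycin KO against saline WT, with adjusted p-values of 0.239 and 0.527 by edgeR. Etfa, a subunit of the flavoprotein that hands electrons to Etfdh, was at 11.4, 0, 61.3 and 49.7 CPM in saline WT and 69.0 to 128 CPM in bleomycin WT, again with no overlap. Its log2 fold change was 1.43 (SE 0.646), with an adjusted p of 0.328 by edgeR. Sdhb, of succinate dehydrogenase, and Sucla2, of succinyl-CoA synthetase, had values of 1.78 and 1.89, but bleomycin WT 4 held 1563 CPM of Sdhb against 231 to 365 CPM in the other bleomycin WT libraries, and over 10 libraries the values were 0.59 and 0.81.

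Acsl4, which activates long polyunsaturated fatty acids, was at 0 to 57.1 CPM in saline WT and 76.5 to 559 CPM in bleomycin WT, with no overlap. The log2 fold change was 2.39 (SE 0.753, adjusted p 0.226 by edgeR) with bleomycin WT 4 at 559 CPM, and 0.86 over 10 libraries. Acsl5 and Acsl3, 2 further synthetases, had values of 0.57 and -0.96, which were 0.0081 and -0.89 over 10 libraries. Cpt1c, a neuronal relative of Cpt1a, had -1.70, and Mlycd, which removes the malonyl-CoA that blocks Cpt1a, had 1.80, both at low levels of 0 to 25.7 CPM.

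Acaa1b, a peroxisomal thiolase, had the lowest fold change of the 6 lists. It was at 22.1, 0, 28.7 and 21.9 CPM in saline WT 1 to 4. In bleomycin WT 1 to 4 it was at 0.899, 1.36, 0.406 and 0.178 CPM, and in bleomycin KO 1 to 4 at 1.19, 0.198, 0.232 and 2.39 CPM. The 3 deep saline libraries lay above all 8 bleomycin libraries, and the shallow one held no count. The log2 fold change was -4.76 (SE 1.10) for bleomycin WT and -4.32 (SE 1.08) for bleomycin KO against saline WT, with adjusted p-values of 0.174 and 0.207 by edgeR. DESeq2 gave adjusted p-values of 7.41e-05 and 0.000391 for these. The gene is uncertain, since 46.2% of its 50-base windows also occur in other genes, 35.5% in Acaa1a, its near copy, and 10.7% in Dlec1. Acot8, a peroxisomal thioesterase, had a log2 fold change of -0.74 (SE 0.728) for bleomycin WT against saline WT, and -0.13 (SE 0.375) over 10 libraries.

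Ppargc1b, a coactivator that raises mitochondrial oxidation genes and is known from macrophages treated with IL-4, was at 1.22, 0, 1.13 and 5.79 CPM in saline WT 1 to 4. It was at 9.59, 27.2, 7.63 and 95.4 CPM in bleomycin WT 1 to 4 and at 15.95, 15.2, 10.2 and 6.72 CPM in bleomycin KO 1 to 4. Every bleomycin library lay above every saline library, and bleomycin WT 4 was the highest. The log2 fold change was 3.74 (SE 0.998) for bleomycin WT and 2.21 (SE 0.945) for bleomycin KO against saline WT, with adjusted p-values of 0.206 and 0.515 by edgeR. DESeq2 gave an adjusted p of 0.00826 for the first. Over 10 libraries the first was 2.42 (SE 0.790). Between the genotypes the value was -1.54 (SE 0.853), with overlap, and -0.29 (SE 0.687) over 10 libraries, without bleomycin WT 4.

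Pparg, the lipid-sensing receptor that alveolar macrophages depend on, was at 127, 0, 178 and 109 CPM in saline WT 1 to 4, and bleomycin WT 1 to 4 held 77.8, 64.3, 60.1 and 5.86 CPM. The bleomycin WT libraries lay below the 3 deep saline libraries, and Pparg is also 1 of the 10 alveolar macrophage markers. Its log2 fold change was -1.06 (SE 0.783) over 12 libraries and -1.06 (SE 0.263) over 10. Prkaa2, a catalytic subunit of the energy sensor AMPK, had -1.83 at levels of at most 6.66 CPM. Among PPAR targets Pdk4, which turns the cell from glucose to fatty acid use, was at 3.65, 0, 13.8 and 37.9 CPM over the saline libraries and at 0.494 to 5.79 CPM in bleomycin WT, with a log2 fold change of -2.25 (SE 1.08). Cd36, a fatty acid receptor, had 1.04 and Acot2, a mitochondrial thioesterase, had 3.32, but bleomycin WT 4 held the highest level of both, at 2284 and 94.5 CPM, and over 10 libraries the values were -0.27 and -0.03. Acot1, a cytosolic thioesterase named after its values were seen, was at 9.00, 0, 13.2 and 9.27 CPM over the saline libraries and at 0 to 1.24 CPM in bleomycin KO. Its log2 fold change there was -3.54 (SE 1.21), with an adjusted p of 0.381 by edgeR and 0.0363 by DESeq2.

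**Figure D4:**
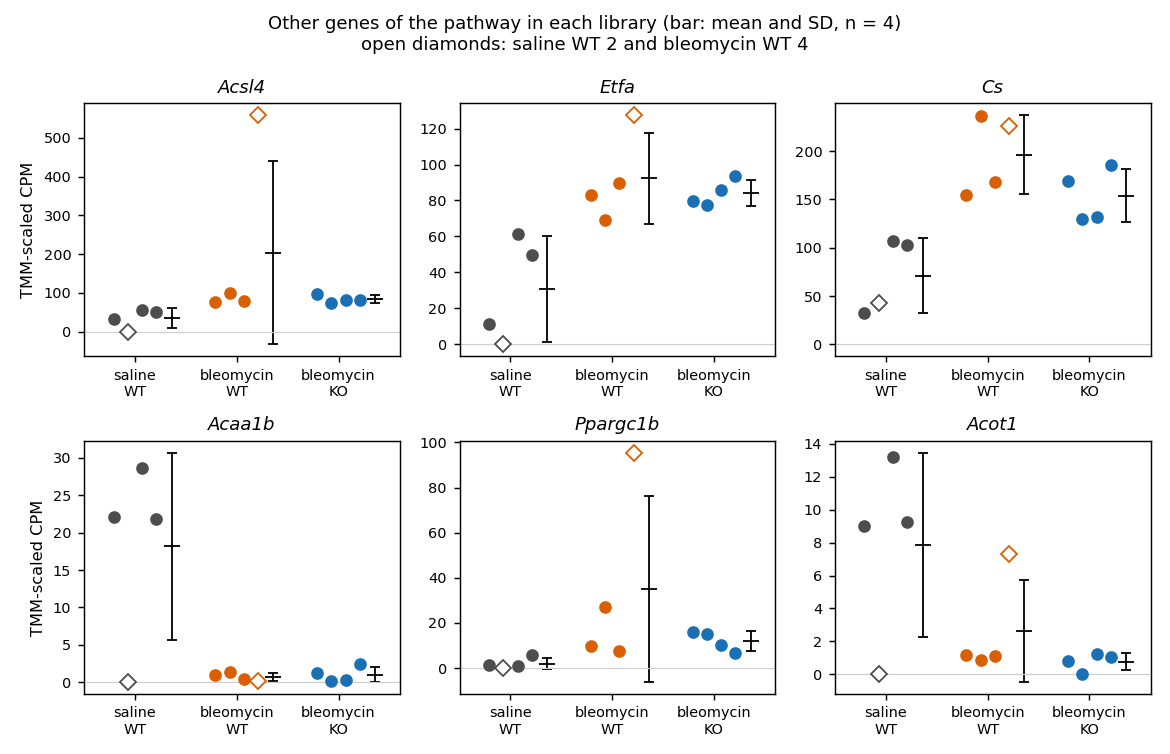
TMM-scaled CPM (vertical axis, linear) of 6 other genes of the pathway in each of the 12 libraries (points), with the mean and SD of each group of 4 (bars). Open diamonds mark saline WT 2 and bleomycin WT 4. Cs in the bleomycin groups (129 to 237 CPM) lies above saline WT (32.3 to 107 CPM), and Acaa1b is above 21 CPM in 3 saline libraries and at most 2.39 CPM in the bleomycin libraries.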

How the data were processed

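Full-length cDNA was amplified with SMART-Seq v4, a kit that does not mark strand, then tagmented with Nextera XT and sequenced single-end on a NovaSeq, per the labels' protocols. The tools were GSNAP, limma and Partek and the builds GRCm38 and mm10, per the submitters' processing notes. The sources used here do not give versions, settings or the treatment of reads with several matches. The authors deposited raw counts per Ensembl gene for 52636 genes in 12 libraries, with a gene table of symbols and exonic sizes. The design text of the series describes another experiment and was not used.

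From these counts, edgeR 4.0.16 in R 4.3.3 gave filterByExpr by group (16679 genes kept, all 9 enzymes among them), TMM scaling, CPM, robust dispersions and quasi-likelihood tests on all 12 libraries with group as the only term. Adjusted p is Benjamini-Hochberg over all genes tested, with a threshold of 0.05. The SE is the size of the log2 fold change over the square root of F, and intervals are 95%. Every pair of replicates differed by more than sampling noise (chi-square per degree of freedom of at least 23.9). Correlations used log2(CPM + 1). All 165 symbols of the lists matched, and 163 were tested. Windows of 50 bases came from GENCODE vM21 transcripts.

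Enzymes, lists and tests were chosen with earlier results of these data known. Genes named are all 9 enzymes, the 3 genes of smallest p in bleomycin WT against saline WT of each other list, abundant markers, and the 5 genes most like the enzymes' profile. A gene that this rule names is not reported here. The pipeline was tested on simulated data. Alternatives were RLE scaling, no filter, DESeq2 1.42.0, limma-voom 3.58.1 with and without quality weights, the 2 groups compared alone, 10 libraries, each library left out, and a replicate block.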

Additional observations from a re-analysis of the deposited data

Results flagged for a closer look

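Dixon's criterion at 95% was applied to groups of 4 libraries. It marks a highest or lowest library whose gap to its nearest neighbour takes up most of the group's range. Chance alone does that in about 1 in 20 groups of independent, normally distributed values. The CPM used were not log-transformed, the genes share libraries, and the other genes were picked by p in these same data. The counts of marked groups therefore cannot be set against that rate. Of 27 groups of enzyme values 6 were marked, and 6 of 54 groups of the other named pathway genes. Bleomycin WT 4 carried 3 of the marked enzyme values: Eci1 at 326 CPM, Etfdh at 132 CPM and Hadhb at 26.1 CPM. The other enzyme values that stood apart in their groups were Cpt1a at 364 CPM in bleomycin WT 2, Cpt2 at 38.6 CPM in bleomycin KO 3 and Eci1 at 47.3 CPM in bleomycin KO 4. Bleomycin WT 4 also carried 5 of the other genes, with Acsl4 at 559, Acsl5 at 449, Acot2 at 94.5 and Sdhb at 1563 CPM above the group, and Acsl3 at 0.889 CPM below it. Acot8 stood at 108 CPM in saline WT 2, where 1 count is worth 10.8 CPM.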

How the results depend on the processing

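The count of enzymes called, 0 of 9 in each of the 3 comparisons, was the same under all 20 alternatives, the replicate block included. Same-numbered libraries did not deviate together: of 12 pairs none had a correlation over 0.1 (-0.182 to 0.0528). Pairs with different numbers ran from -0.228 to 0.416, and the shallow saline WT 2 is among the pairs, so these values cannot exclude pairing by number. The block left 0 enzymes called and 2 in place of 4 genes over the whole table in bleomycin WT against saline WT. That whole-table count was 512 by DESeq2 (181 higher, 331 lower), 319 with quality weights, 780 with no filter, 81 over 10 libraries, 6 by limma-voom, 1 with RLE scaling and 0 with the 2 groups alone. RLE scaling moved the median of all genes in this comparison from 0.08 to -0.09. Of the 77 other pathway genes none was called by edgeR with the filter. In bleomycin WT against saline WT 3 were called by edgeR with no filter, 2 by DESeq2 and 2 with quality weights. In bleomycin KO against saline WT 1 was called by edgeR with no filter, 2 by DESeq2, 1 by limma-voom and 2 with quality weights. The cause was not tested. Acaa1b was among the called genes in each of these 7 cases.

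The direction of some differences turned, among them that of Eci1 between the genotypes, -1.65 over 12 libraries. For bleomycin WT against saline WT, Acadm became 0.00275 with no filter, 0.35 with quality weights and 0.0622 over 10 libraries, Cpt2 -0.0887 by limma-voom and Hadhb -0.24 with quality weights. For bleomycin KO against saline WT, Hadhb became -0.0631 with quality weights. Between the genotypes, Hadha became 0.0216 with RLE scaling, 0.0348 with no filter, 0.0210 by DESeq2 and 0.0209 with quality weights. With quality weights Cpt2 became -0.18, Hadhb 0.18 and Etfdh 0.0665, and over 10 libraries Cpt1a -0.0435, Cpt2 -0.15, Hadhb 0.15, Eci1 0.0363 and Etfdh 0.11. The replicate block gave -0.00410 for Cpt1a. Leaving out 1 library at a time gave Acadm -0.23 to 0.40 for bleomycin WT and Hadhb -0.15 to 0.49 for bleomycin KO against saline WT, and between the genotypes Cpt1a -0.13 to 0.45, Cpt2 -0.17 to 0.52, Hadha -0.14 to 0.18, Hadhb -0.61 to 0.12, Eci1 -1.94 to 0.0189 and Etfdh -0.37 to 0.0885. Without bleomycin WT 4, Eci1 for bleomycin WT against saline WT was 0.79 in place of 2.42. The causes were not tested, and the depth of saline WT 2 limits what its values of 0 show.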
